A study of Mus musculus with 30 samples.

Results

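Glucose leaves the liver through a short chain of enzymes and a transporter, and the mRNA of 7 of them, Pcx, Mdh1, Pck1, Fbp1, Slc37a4, G6pc and G6pc3, was described in livers of db/db mice given sebacic acid. The members were chosen by name as every array probe whose gene symbol was one of these 7, which gave 10 of the 25697 probes and 7 of the 16593 named genes. The SA_15% group received chow with 77.6 g sebacic acid per kg food, which supplied 15% of the energy, for 6 weeks (n = 15 livers). The Ctrl group received the chow without sebacic acid for the same time (n = 15 livers). Both groups were db/db males of the strain BKS.Cg-m+/+Leprdb/J, 6-8 weeks old before 2 weeks of habituation, homozygous for the leptin receptor mutation, obese and diabetic, and food was withdrawn for 6 h before the livers were taken. The values therefore describe the diet within 1 diabetic genotype, and mice with an intact leptin receptor or on a lower dose were not analysed here. Each liver had its own Illumina MouseRef-8 array, on which a probe's signal is the mean brightness of its beads.

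Gluconeogenesis turns lactate, alanine and glycerol into glucose during fasting. Pyruvate carboxylase (Pcx) makes oxaloacetate in mitochondria, the cytosolic malate dehydrogenase (Mdh1) regenerates it in the cytosol, and Pck1 commits it to the pathway as phosphoenolpyruvate. Fructose-1,6-bisphosphatase (Fbp1) catalyses a further irreversible step. The last step lies in the endoplasmic reticulum, where glucose 6-phosphate enters through the transporter Slc37a4 and is split by the phosphatase G6pc, or in most other tissues by G6pc3. Pck1 and G6pc are classically induced by glucagon and cAMP and repressed by insulin, and glucose output through this chain is raised in db/db mice.

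Of the 4 members that fell in SA_15% livers, Pck1, Slc37a4 and Fbp1 fell most, and were at 0.540, 0.620 and 0.699 of their Ctrl level. Mdh1 fell less, at 0.871 of its Ctrl level. The phosphatase genes G6pc and G6pc3 and the carboxylase gene Pcx did not pass the test. At an adjusted p under 0.05 from limma, 4 of 7 members were lower and 0 were higher, where 19.4% of all 11329 detected probes were lower and 17.1% were higher (36.6% together). The study had already reported Pck1 and Fbp1 as lower in these livers. Members were chosen with earlier results of these data known, so the count is a description only. The split of all probes depended on the scaling, with 1942 higher and 2199 lower after quantile normalization and 769 higher and 3066 lower with arrays centred on their medians. The median log2 difference of the members was -0.20, beside -0.01 over all detected probes. In 2 members, Pck1 and Slc37a4, the highest SA_15% liver lay below the lowest Ctrl liver, which was the case for 0.265% of detected probes.

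Mean signal per array ranged from 327 to 498 in SA_15% livers and from 314 to 451 in Ctrl livers, and arrays of 1 group correlated at 0.988 to 0.996. The highest signal of an array was 33438 to 44013 (median 38899) in SA_15% livers and 25523 to 35474 (median 31729) in Ctrl livers. The median signal of an array was 63.8 to 79.0 in SA_15% livers and 55.7 to 73.3 in Ctrl livers. Before normalization the arrays of the 2 groups thus differed most at the bright end. Of 21 genes of plasma proteins and other hepatocyte products 16 were tested, with 7 lower, 1 (Ttr) higher and 8 not passing, and no probe of Alb, Fgb or Tat was detected. With arrays centred on their medians 6 of the 16 were higher and 8 lower. No marker of cholangiocytes (0 of 6) or of kidney and intestine (0 of 6) was tested. Epcam, Spp1 and Lct of these lists were not on the array under that symbol, and no probe of the others was detected. Of 12 Kupffer cell and macrophage markers 9 were tested, 5 were higher and 0 were lower, and their summed signal was 1831 to 4743 in SA_15% livers and 1322 to 3708 in Ctrl livers. Of 9 tested endothelial markers 3 were higher and 1 was lower (summed signal 3613 to 5280 in SA_15% livers and 3119 to 4440 in Ctrl livers). Of 3 tested red cell genes 2 were higher (11428 to 21313 in SA_15% livers and 5850 to 12892 in Ctrl livers), led by Hba-a1 at a log2 difference of 0.77. With median centring 2 of the 9 macrophage and 1 of the 9 endothelial markers were higher. Of 4 tested stellate cell genes 0 passed. The part of these shifts in the member values was not tested. In whole-liver RNA, fewer cells of a type and less RNA per cell cannot be told apart.

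The stretch around the transcription start is shown for the 3 genes that fell most and for G6pc, which shares the last step with Slc37a4 and did not pass the test. Each runs 5′ to 3′ along its gene from 250 bases before to 50 bases after the start annotated by RefSeq in GRCm38.p6. Capitals mark matches to the letters searched on both strands, TGACG (one side of a cAMP response element), TGTTTAC (forkhead core), TGTTTTG (a core of the insulin response unit of G6pc), CACGTG (E-box) and TATAAA, and no match overlapped another. Slc37a4 has 3 annotated starts, of which the most upstream is shown.
Pck1, chr2:173152823-173153122, plus strand: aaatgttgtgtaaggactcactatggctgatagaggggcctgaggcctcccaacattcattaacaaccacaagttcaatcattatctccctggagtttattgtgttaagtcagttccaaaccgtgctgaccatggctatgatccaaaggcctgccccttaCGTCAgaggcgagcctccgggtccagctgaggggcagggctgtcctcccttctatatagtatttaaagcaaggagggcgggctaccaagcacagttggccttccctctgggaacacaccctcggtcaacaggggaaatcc
Slc37a4, chr9:44396696-44396995, plus strand: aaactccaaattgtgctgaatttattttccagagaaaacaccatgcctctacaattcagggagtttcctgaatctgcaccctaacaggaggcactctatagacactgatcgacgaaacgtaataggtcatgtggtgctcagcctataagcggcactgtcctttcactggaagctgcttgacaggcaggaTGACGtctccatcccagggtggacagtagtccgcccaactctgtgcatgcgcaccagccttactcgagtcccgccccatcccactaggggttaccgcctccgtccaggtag
Fbp1, chr13:62888233-62888532, minus strand: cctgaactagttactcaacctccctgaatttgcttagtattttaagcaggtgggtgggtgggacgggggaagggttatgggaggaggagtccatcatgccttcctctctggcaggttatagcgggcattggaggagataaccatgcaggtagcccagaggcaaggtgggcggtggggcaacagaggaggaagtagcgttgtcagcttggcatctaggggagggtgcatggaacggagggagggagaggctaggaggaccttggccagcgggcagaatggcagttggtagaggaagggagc
G6pc, chr11:101367466-101367765, plus strand: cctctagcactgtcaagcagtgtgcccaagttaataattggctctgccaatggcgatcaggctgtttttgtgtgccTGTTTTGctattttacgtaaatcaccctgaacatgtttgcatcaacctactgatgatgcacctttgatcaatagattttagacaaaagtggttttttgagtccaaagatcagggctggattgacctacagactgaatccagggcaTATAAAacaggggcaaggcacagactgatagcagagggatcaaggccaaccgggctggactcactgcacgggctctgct

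The windows of Pck1 and of Slc37a4 both held TGACG, at bases -90 to -86 on the opposite strand in Pck1 and at -61 to -57 on the gene's own strand in Slc37a4. These letters occur in 20.8% of all 32851 promoter windows of this length, so a match is no more than a description. G6pc held TGTTTTG at -174 to -168 (6.28% of windows) and TATAAA at -29 to -24 (13.6% of windows), and no TGACG. Only these exact letters were searched, and other forms of such elements were not looked for. The window of Fbp1 held none of the 5 motifs, and neither did that of Mdh1. The E-box letters CACGTG (7.15% of windows) were present at 2 places in the window of G6pc3 and at 1 in the upstream window of Pcx, and TGTTTAC (3.65% of windows) was in no member's window. The window of the second start of Slc37a4 overlaps the one shown and had 2 TGACG matches, 1 of them the site already given, and that of the third start had TATAAA at -32 to -27.

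Pck1 encodes the cytosolic phosphoenolpyruvate carboxykinase, the step long taken as the main control point of gluconeogenesis. Its log2 signal (probe ILMN_1213632) ran from 7.89 through a median of 8.28 to 8.72 in SA_15% livers, and from 8.84 through 9.19 to 9.66 in Ctrl livers. The groups did not overlap, with a gap of 0.11 between the highest SA_15% liver (replicate 12) and the lowest Ctrl liver (replicate 5). The mean was 8.29 ± 0.21 in SA_15% livers and 9.18 ± 0.22 in Ctrl livers (SD, n = 15 each), a log2 difference of -0.89 (standard error 0.07, adjusted p = 1.57e-10 from limma). As a fold (SA_15%/Ctrl) this was 0.540 (95% interval 0.486 to 0.599). Pck1 was the tenth probe of 11329 by p-value. Before normalization the signal was 223 to 421 (median 339) in SA_15% livers and 406 to 918 (median 569) in Ctrl livers, so the 2 groups overlapped slightly before normalization and not after it.

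Slc37a4 is the carrier that brings glucose 6-phosphate into the endoplasmic reticulum for G6pc, and its loss causes glycogen storage disease type Ib in humans. Its log2 signal (probe ILMN_2684307) ran from 7.62 through a median of 7.92 to 8.19 in SA_15% livers, and from 8.24 through 8.62 to 8.89 in Ctrl livers. Again no SA_15% liver reached a Ctrl liver, but the gap was only 0.044, between SA_15% replicate 7 and Ctrl replicate 13. The log2 difference was -0.69 (standard error 0.06, adjusted p = 4.55e-10 from limma), a fold of 0.620 (95% interval 0.569 to 0.676). The unnormalized signals did overlap, at 172 to 360 in SA_15% livers and 264 to 514 in Ctrl livers. After a background correction (neqc), which stretches differences of dim probes, the log2 difference was -0.81 for Slc37a4 and -0.99 for Pck1.

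Fbp1 removes a phosphate from fructose 1,6-bisphosphate and opposes phosphofructokinase. It had a bright probe (ILMN_2785586), with log2 signals from 11.36 through a median of 11.62 to 12.04 in SA_15% livers and from 11.66 through 12.15 to 12.60 in Ctrl livers. The groups overlapped at their edges: all 15 SA_15% livers lay below the Ctrl median and 8 below the lowest Ctrl liver, and 3 Ctrl livers lay below the highest SA_15% liver. The means were 11.66 ± 0.20 in SA_15% livers and 12.17 ± 0.24 in Ctrl livers (SD, n = 15 each). The log2 difference was -0.52 (standard error 0.08, adjusted p = 4.24e-06 from limma), a fold of 0.699 (95% interval 0.627 to 0.780).

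Mdh1 had 3 probes, of which 2 were detected on all 30 arrays, and both were lower in SA_15% livers. The brighter probe (ILMN_2655677) ran from 8.12 through a median of 8.40 to 8.58 in SA_15% livers and from 8.35 through 8.63 to 8.87 in Ctrl livers. All 15 SA_15% livers lay below the Ctrl median, yet 10 of them lay above the lowest Ctrl liver. Its log2 difference was -0.20 (standard error 0.05, adjusted p = 0.00389 from limma), a fold of 0.871 (95% interval 0.807 to 0.939). The dimmer probe (ILMN_2891176) differed by -0.14 (standard error 0.05, adjusted p = 0.0294), a fold of 0.909 (95% interval 0.848 to 0.975). This call of the dimmer probe was lost without SA_15% replicate 5 or 11 (adjusted p = 0.0511 and 0.0543) and without Ctrl replicate 7 or 12 (adjusted p = 0.0540 and 0.0518). The last probe (ILMN_2631021) was above background in 0 SA_15% livers and 1 Ctrl liver and was left out of the main test. With all 25697 probes tested, its log2 difference was -0.17 (standard error 0.04, adjusted p = 0.00328 from limma). A difference between those of the 2 detected Mdh1 probes thus also appeared in a probe at background.

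G6pc, the catalytic subunit of the liver glucose-6-phosphatase, is the enzyme that frees glucose for release. Its log2 signal (probe ILMN_1245103) ran from 12.29 through a median of 12.70 to 13.00 in SA_15% livers and from 12.23 through 12.80 to 13.34 in Ctrl livers. The SA_15% livers lay inside the Ctrl range, 10 of them below and 5 above the Ctrl median. The log2 difference was -0.14 (standard error 0.09, 95% interval -0.33 to 0.05, adjusted p = 0.237 from limma), a fold of 0.908 (95% interval 0.798 to 1.03). The call turned with the processing, as G6pc was called lower after median centring of the arrays (-0.27, adjusted p = 0.022), and also when a pooled error served as its variance (-0.14, adjusted p = 0.022).

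G6pc3, the phosphatase of most other tissues, and Pcx, which feeds mitochondrial oxaloacetate into the pathway, showed the smallest differences of the 7 members. G6pc3 (probe ILMN_1218602) had log2 signals of 6.54 to 7.17 (median 6.88) in SA_15% livers and 6.66 to 7.22 (median 6.87) in Ctrl livers. Its log2 difference was -0.05 (standard error 0.05, 95% interval -0.16 to 0.06, adjusted p = 0.471 from limma). This probe was dim and can understate a difference, and with neqc the value was -0.083 (standard error 0.085, adjusted p = 0.463 from limma). A second G6pc3 probe (ILMN_2766114) was detected in 0 of the 30 livers and differed by -0.08 with all probes tested (adjusted p = 0.0963 from limma). Pcx (probe ILMN_2748361) had log2 signals of 8.82 to 9.27 (median 9.00) in SA_15% livers and 8.81 to 9.36 (median 9.03) in Ctrl livers, and its log2 difference was -0.03 (standard error 0.05, 95% interval -0.14 to 0.08, adjusted p = 0.691). For both genes the 2 groups covered almost the same range. A two-sided permutation test over livers of each gene alone gave p = 1e-05 for Pck1, Slc37a4 and Fbp1, the smallest value that 100000 resamples can give, 0.00099 for Mdh1, 0.161 for G6pc, 0.354 for G6pc3 and 0.585 for Pcx.

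**Figure D1:**
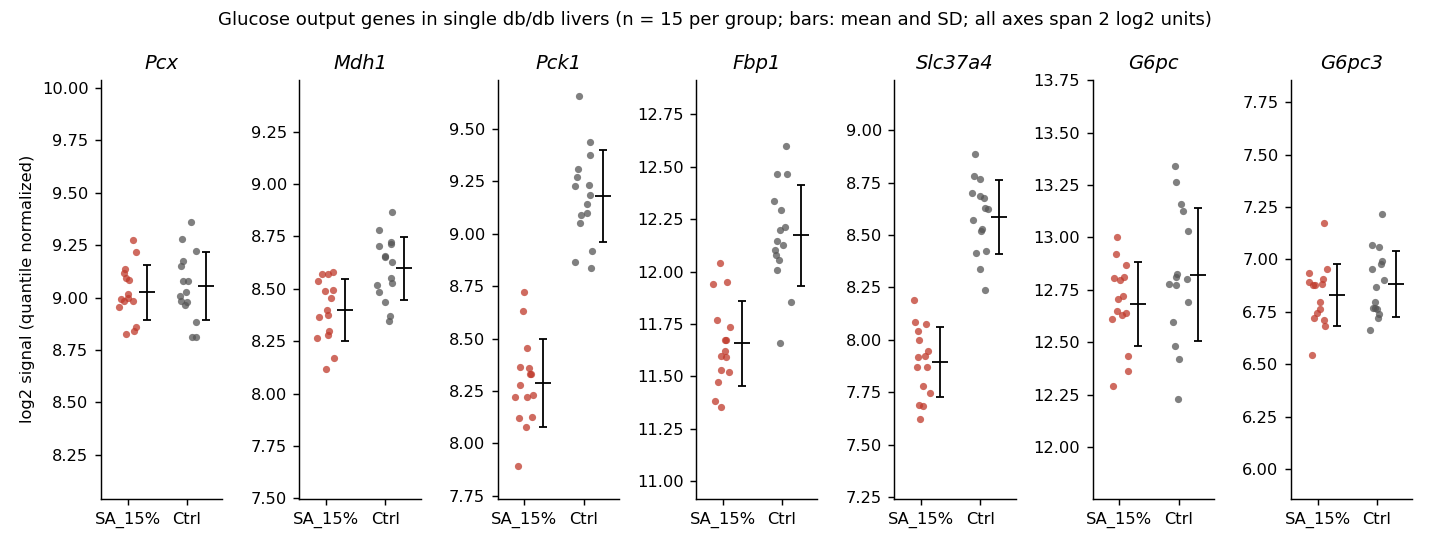
Log2 signal of the brightest detected probe of each member in every liver (15 SA_15% livers on the left and 15 Ctrl livers on the right of each panel, bars for mean and SD, all axes spanning 2 log2 units). The 2 clouds lay apart for Pck1 and Slc37a4, overlapped at the edges for Fbp1 and lay on each other for Pcx, G6pc and G6pc3.

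Genes of plasma proteins and the enzyme gene Cps1, 16 tested together, are also expressed by hepatocytes, and 7 of the 16 were lower, Cps1 among them. Relative to the mean log2 signal of these 16 genes in the same liver, a comparison added after the data had been seen, Pck1 differed by -0.75, Slc37a4 by -0.55 and Fbp1 by -0.38 (permutation p = 1e-05, 1e-05 and 0.0001). Mdh1 then differed by -0.07 and no longer passed (permutation p = 0.219). G6pc differed by -0.0046, G6pc3 by 0.08 and Pcx by 0.11, none of them past the threshold. This comparison was run on quantile normalized values only, and its dependence on the scaling was not tested. With arrays centred on their medians the median log2 difference of the 16 genes was -0.14, beside -0.29 for Mdh1 and -0.27 for G6pc.

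**Figure D2:**
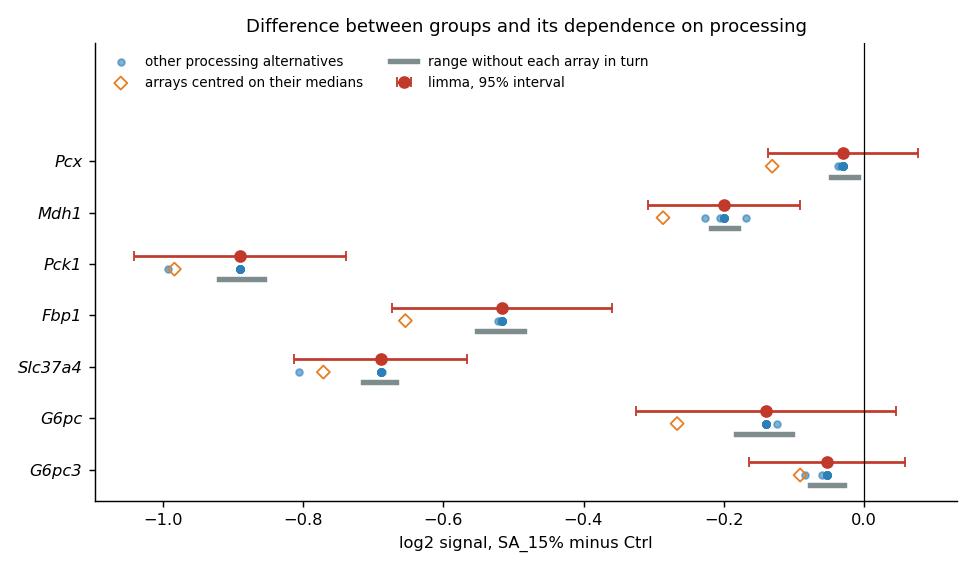
SA_15% minus Ctrl difference in log2 signal of each member, with its 95% interval from limma (red), the other processing alternatives (blue), arrays centred on their medians (orange) and the range when each array was left out in turn (grey). Pck1, Slc37a4, Fbp1 and Mdh1 kept clear of 0 under all of these settings, and the intervals of G6pc (-0.33 to 0.05), G6pc3 and Pcx crossed 0.

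Whether the members differed in their response was tested on the difference of 2 log2 signals within each liver, for all 21 pairs, with a permutation test over livers and adjustment over the pairs. The response differed in 15 of 21 pairs. G6pc fell less than each of the 3 genes that fell most, with a difference in response of -0.75 for Pck1 minus G6pc (95% interval -1.01 to -0.49, adjusted p = 5.25e-05) and -0.38 for Fbp1 minus G6pc (95% interval -0.56 to -0.19, adjusted p = 0.000496). Between the phosphatase and the transporter of the same final step it was 0.55 for G6pc minus Slc37a4 (95% interval 0.36 to 0.74, adjusted p = 4.2e-05). Pck1 fell further than Fbp1, at -0.37 for Pck1 minus Fbp1 (95% interval -0.59 to -0.16, adjusted p = 0.00225). Slc37a4 lay between them and was not set apart from either, at -0.20 for Pck1 minus Slc37a4 (95% interval -0.42 to 0.02, adjusted p = 0.0913) and 0.17 for Fbp1 minus Slc37a4 (95% interval -0.02 to 0.37, adjusted p = 0.0913). The first of these passed without SA_15% replicate 12 (adjusted p = 0.0266) or Ctrl replicate 5 (0.0403), and the second passed with neqc (0.28, adjusted p = 0.0129) and without SA_15% replicate 7 (0.0286) or Ctrl replicate 10 (0.0197). All of these are differences between log2 differences, and a dim probe, such as that of G6pc3 or Slc37a4, can understate its own.

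Among the members with small differences, Mdh1 fell more than Pcx (0.17 for Pcx minus Mdh1, 95% interval 0.04 to 0.30, adjusted p = 0.0176). It also fell more than G6pc3 (0.15 for G6pc3 minus Mdh1, 95% interval 0.01 to 0.28, adjusted p = 0.0425), but narrowly. That call was lost with neqc (adjusted p = 0.165) and without any 1 of 15 livers, SA_15% replicates 1, 5, 6, 7, 8, 11 and 15 and Ctrl replicates 2, 4, 7, 8, 10, 12, 13 and 15, with adjusted p between 0.0511 and 0.0801. G6pc was not set apart from Mdh1, at 0.06 for G6pc minus Mdh1 (95% interval -0.15 to 0.27, adjusted p = 0.58). The same held against G6pc3, at -0.09 for G6pc minus G6pc3 (95% interval -0.31 to 0.13, adjusted p = 0.473), and against Pcx, at -0.11 for G6pc minus Pcx (95% interval -0.35 to 0.13, adjusted p = 0.409). The last pair, G6pc3 minus Pcx, was at -0.02 (95% interval -0.16 to 0.12, adjusted p = 0.739) and turned to 0.040 with median centring.

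**Figure D3:**
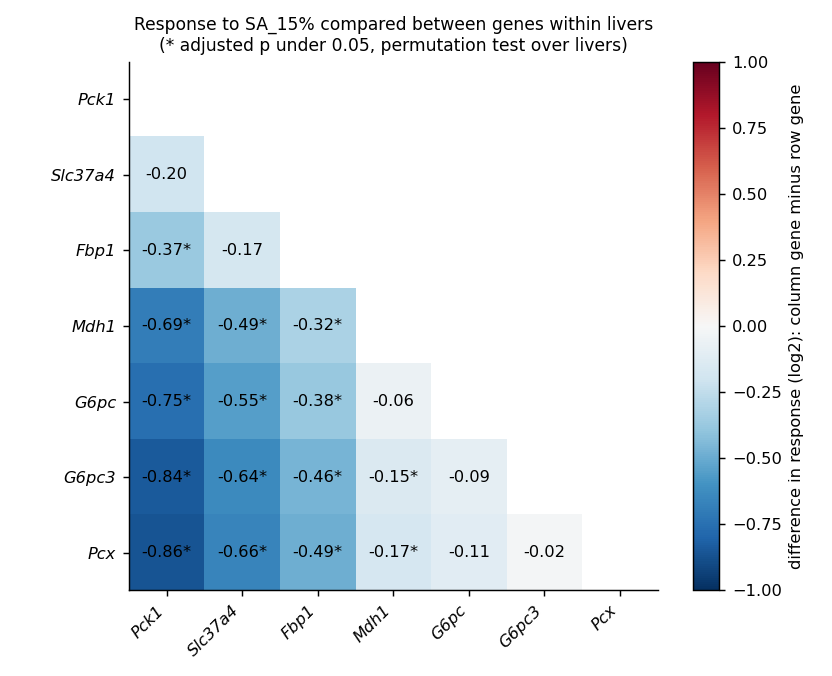
Difference in response (SA_15% minus Ctrl, log2) between pairs of members, column gene minus row gene, with an asterisk for an adjusted p under 0.05 from the permutation test over livers. Pck1, Slc37a4 and Fbp1 each fell more than Mdh1, G6pc, G6pc3 and Pcx, and neither Pck1 nor Fbp1 was set apart from Slc37a4.

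No member passed a test for a different spread between single livers in the 2 groups. Between the lowest and the highest liver Pck1 ranged 1.78-fold in SA_15% livers and 1.76-fold in Ctrl livers, and G6pc 1.64-fold in SA_15% livers and 2.16-fold in Ctrl livers. The SD of G6pc was 0.20 in SA_15% livers and 0.32 in Ctrl livers, and the permutation test of the spread gave p = 0.171. For the other 6 members p was between 0.416 and 0.938. SA_15% replicate 7 was the lowest SA_15% liver for G6pc but the highest for Slc37a4, and Ctrl replicate 13 was the lowest Ctrl liver for Fbp1, G6pc and Slc37a4.

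No pair of members covaried across single livers past the threshold. Within the 15 livers of a group the median Pearson r over the 21 pairs was 0.06 (range -0.43 to 0.59) in SA_15% livers and 0.16 (range -0.41 to 0.63) in Ctrl livers, with 14 positive pairs in each group. After adjustment over the 42 values, 0 pairs passed in either group, and at an unadjusted p under 0.05 there was 1 pair in SA_15% livers and 3 in Ctrl livers. Groups were not pooled, since Pck1 and Slc37a4 form separate clusters by diet.

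The 3 pairs with an unadjusted p under 0.05 for Pearson's r in Ctrl livers were Fbp1 with G6pc, G6pc with Slc37a4 and G6pc3 with Mdh1. Fbp1 and G6pc had r = 0.27 and rho = 0.17 in SA_15% livers (permutation p = 0.334 and 0.549). In Ctrl livers this pair had r = 0.63 and rho = 0.68 (permutation p = 0.0109 and 0.00619, adjusted p = 0.198 and 0.112), and r = 0.61 without the 2 livers farthest from the Fbp1 median. G6pc and Slc37a4 had r = 0.06 and rho = 0.15 in SA_15% livers (permutation p = 0.829 and 0.603). In Ctrl livers they had r = 0.62 and rho = 0.51 (permutation p = 0.014 and 0.053, adjusted p = 0.198 and 0.446). Without the 2 livers farthest from the G6pc median r was 0.39. G6pc3 and Mdh1 had r = -0.03 in SA_15% livers. In Ctrl livers they had r = 0.62 and rho = 0.67 (permutation p = 0.0142 and 0.00799, adjusted p = 0.198 and 0.112), with r = 0.43 without 2 livers. By rank Fbp1 with Mdh1 also had an unadjusted p under 0.05 in Ctrl livers, with rho = 0.67 (permutation p = 0.00789, adjusted p = 0.112), where r was 0.49 (permutation p = 0.0663, adjusted p = 0.552) and 0.65 without 2 livers. In SA_15% livers this pair had r = 0.42 and rho = 0.33 (permutation p = 0.114 and 0.222). The difference of these correlations between the diets was not tested.

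In SA_15% livers the highest pair was Pcx and Mdh1, the enzymes of oxaloacetate supply, at r = 0.59 and rho = 0.575 (permutation p = 0.021 and 0.0273, adjusted p = 0.22 and 0.287), and r = 0.53 without 2 livers. Both genes also had negative r with array-wide measures, whose part in the pair was not tested. Pcx had r = -0.51 and Mdh1 r = -0.66 with the leading component of the residuals in SA_15% livers, which held 16.9% of the variance within groups, and Mdh1 had r = -0.64 with the mean raw signal (adjusted p = 0.222, 0.138 and 0.138 over 42 such values). Of those values none passed, and the strongest was Pcx with that component in Ctrl livers (r = -0.75, adjusted p = 0.0676). Pck1 and Fbp1, which both fell, had r = 0.06 in SA_15% livers and 0.15 in Ctrl livers. Pck1 and G6pc had r = -0.43 in SA_15% livers, which became 0.03 without 2 livers, and 0.16 in Ctrl livers.

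**Figure D4:**
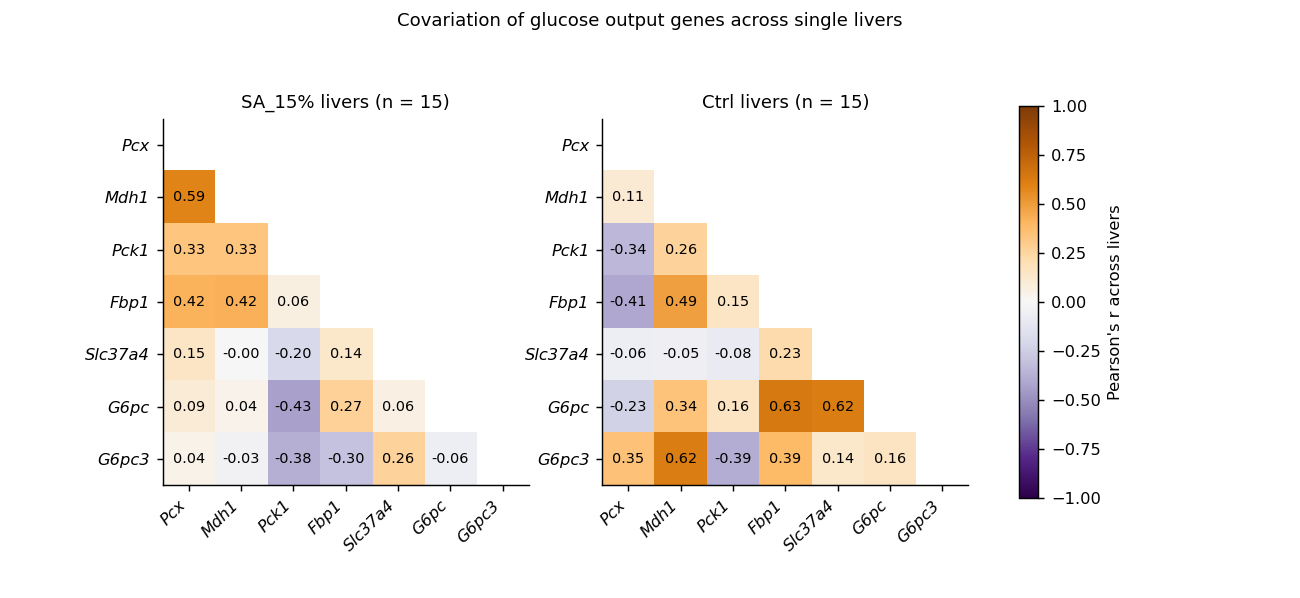
Pearson's r across single livers for the 21 pairs of members, in 15 SA_15% livers (left) and in 15 Ctrl livers (right). The highest values are 0.59 for Pcx and Mdh1 in SA_15% livers and 0.63 for Fbp1 and G6pc in Ctrl livers, and 0 of 21 pairs passed after adjustment in either panel.

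**Figure D5:**
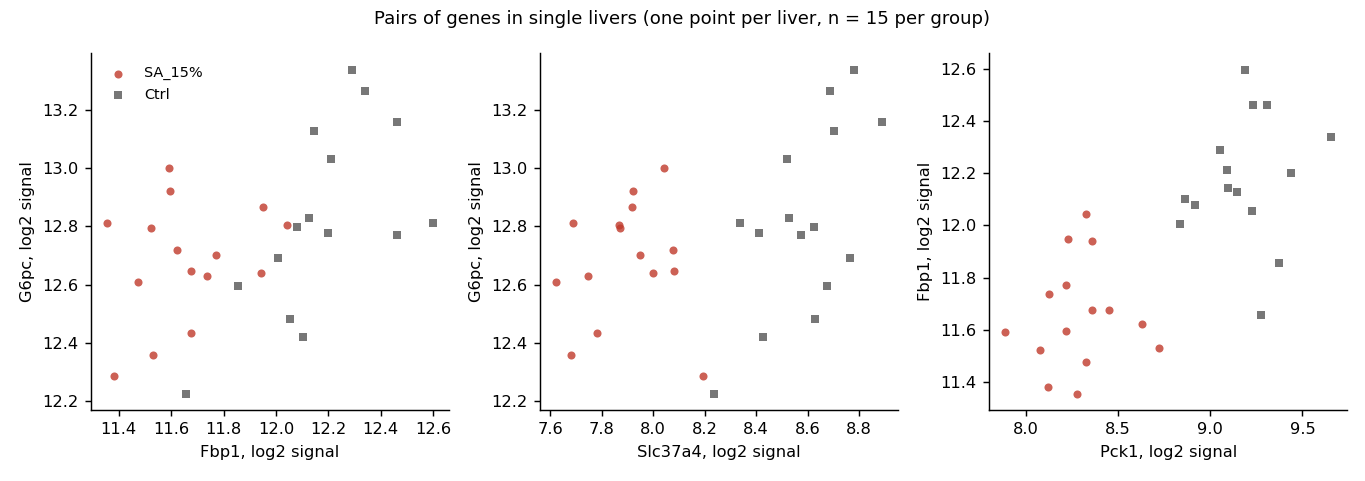
Log2 signals of 3 pairs of members, 1 point per liver (SA_15% red circles, Ctrl grey squares, n = 15 each). For Fbp1 and G6pc r was 0.27 in SA_15% livers and 0.63 in Ctrl livers, for G6pc and Slc37a4 0.06 in SA_15% livers and 0.62 in Ctrl livers, and for Pck1 and Fbp1 0.06 in SA_15% livers and 0.15 in Ctrl livers, the 2 groups lying apart on the Pck1 axis.

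Each member was also set against 7904 other named genes by the smaller of its 2 within-group r (n = 15 livers in each). The closest to Pck1 were Styx (smaller r 0.67), Nxpe2 (0.61) and Nectin3 (0.54), none of which passed the test between the diets. The closest to Slc37a4 were Aadac (0.64), Rpf2 (0.57) and Rrp8 (0.56), all 3 lower in SA_15% livers by 0.12 to 0.17. The closest to Fbp1 were Thnsl2 (0.70), Parva (0.64) and Eno1b (0.63), and to G6pc Ttc39c (0.56), Ikbkb (0.54) and Nme4 (0.53). Ttc39c fell by 0.51 (standard error 0.07, adjusted p = 2.63e-06 from limma), while G6pc itself did not pass. For G6pc3 they were Klhdc2 (0.66), Tspyl1 (0.66) and Get1 (0.63), all 3 higher in SA_15% livers by 0.14 to 0.24. For Pcx they were Top1 (0.68), Ppm1a (0.68) and Chpt1 (0.66), and for Mdh1 Hnrnpa2b1 (0.72), Adh5 (0.72) and Fech (0.71). Fech rose by 0.24 (standard error 0.07, adjusted p = 0.00656 from limma), where Mdh1 fell. Of the other neighbours Eno1b fell by 0.21 (adjusted p = 0.0141), and the rest did not pass. With so many genes and 15 livers these values are a description only.

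Around the members, genes that bring carbon to gluconeogenesis included both higher and lower ones. Of 26 genes of substrate supply and shuttles 15 were tested, with 5 lower, 3 higher and 7 not passing, and their median log2 difference was -0.09. Slc38a4, an amino acid transporter of hepatocytes, fell by 0.79 (standard error 0.07, adjusted p = 1.89e-10), between the differences of Pck1 and Slc37a4. The alanine aminotransferase gene Gpt fell by 0.31, the cytosolic aspartate aminotransferase gene Got1 by 0.33, the aspartate-glutamate carrier Slc25a13 by 0.29 and the ornithine carrier Slc25a15 by 0.18. The 3 that rose were the dicarboxylate carrier Slc25a10 (0.29), the oxoglutarate-malate carrier Slc25a11 (0.16) and the glycerol channel Aqp9 (0.10, adjusted p = 0.0484), but with arrays centred on their medians none of the 3 passed (0.15, 0.06 and -0.0010) and 7 of the 15 genes were lower. The mitochondrial Pck2 was not detected.

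The enzymes that glycolysis and gluconeogenesis share did not pass the test, as far as they were measured: of 7 listed genes 3 were tested, Gapdh at -0.07, Tpi1 at 0.03 and Pgam1 at 0.02. With median centring Gapdh was called lower (-0.17, adjusted p = 0.0124) and the differences of Tpi1 and Pgam1 turned to -0.10 and -0.06, not past the threshold. Of 4 tested genes of glucose exit and the reticulum lumen, the glucose transporter Slc2a2 fell by 0.17 (standard error 0.06, adjusted p = 0.0218) and the Slc37a4 relative Slc37a3 rose by 0.13 (standard error 0.05, adjusted p = 0.0285), a call that median centring did not keep (0.12, adjusted p = 0.0613). Slc2a1 differed by 0.09 and H6pd, which uses glucose 6-phosphate inside the reticulum, by -0.04, neither past the threshold.

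The 8 tested genes around glycolysis and the use of pyruvate held 3 lower, 1 higher and 4 that did not pass, with a median log2 difference of -0.02. They do not act in 1 direction on glucose output. Pyruvate dehydrogenase kinases, which keep pyruvate from oxidation, differed in direction, as Pdk2 fell by 0.55 (standard error 0.06, adjusted p = 5.61e-09) and Pdk4 rose by 0.72 (standard error 0.15, adjusted p = 0.000273), both also called with median centring and with neqc. Gckr fell by 0.25 and the pyruvate kinase gene Pklr by 0.43 (adjusted p = 0.0151).

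The 14 tested regulators of the pathway held 8 lower, 1 higher and 5 that did not pass, with a median log2 difference of -0.12. Foxo1, the forkhead factor that insulin excludes from the nucleus, fell by 0.41 (standard error 0.06, adjusted p = 1.97e-06). Creb3l3, a liver factor of the reticulum membrane induced in fasting, fell by 0.41 (standard error 0.05, adjusted p = 4.91e-07) and Klf15, a regulator of amino acid use, by 0.41 (standard error 0.07, adjusted p = 6.61e-05). The hepatocyte factor Hnf4a fell by 0.29 and its coactivator Ppargc1a by 0.34 (adjusted p = 8.69e-05 and 0.0123). The glucagon receptor gene Gcgr was the 1 that rose, by 0.15 (standard error 0.06, adjusted p = 0.0389), and did not pass with median centring (0.03, adjusted p = 0.787), where 10 of the 14 regulators were lower.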

How the data were processed

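Total RNA of 30 whole livers, 15 SA_15% and 15 Ctrl by the sample titles, was hybridized to Illumina MouseRef-8 v1.1 arrays. The authors scanned and summarized the beads, with GenomeStudio 2009.2 in the submitters' processing notes. The authors deposited, without normalization, a mean signal intensity and a detection p-value of every probe on every array. A second deposited table held the authors' processed intensity values of the same arrays, which ranked the probes alike (rank correlation 1) and was tried in its place. The raw intensities were quantile normalized, log2 transformed and tested with limma 3.58.1 (lmFit and eBayes, R 4.3.3) over the 11329 detected probes (detection p-value below 0.05 in 15 or more of the 30 livers), with Benjamini-Hochberg adjustment over all of them. The pooled error gave each probe the running median variance of its 201 neighbours in mean signal. Permutation tests over livers were two-sided with 100000 resamples (numpy 2.4.6, scipy 1.17.1). A gene was represented by its brightest detected probe.

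Probes were named by the platform annotation and brought up to the RefSeq symbols of GRCm38.p6; 23978 probes had 1 symbol and 1719 had none. Promoter windows were those of RefSeq, and 7 of 7 members had one. The genes named were all members, the 4 genes of each pathway list with the smallest p, Got1, Gpt, Foxo1, Hnf4a, Ppargc1a, Pklr, Slc2a2 and Pck2, and the 3 genes most like each member. A few other genes of this rule are not reported here. Gcgr, Slc25a10, Slc25a15, Aqp9 and the named cell type markers were added after their values were seen. Members and lists were chosen with earlier results of these data known. The code was tested on simulated data. Alternatives covered background correction, scaling, filters, tests, array weights, a replicate block, the probe rule and each array left out in turn. The number of arrays limits the precision. Mice were housed singly and each liver came from its own mouse. The array's position on a chip was not given in the sources used here, so a chip block was not run.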

Additional observations from a re-analysis of the deposited data

How the results depend on the processing

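The calls of Pck1, Slc37a4, Fbp1 and Mdh1 as lower, and of G6pc3 and Pcx as not past the threshold, held for the brightest probe of each under all 13 alternatives and without any 1 of the 30 livers. With each liver left out the log2 difference ran from -0.92 to -0.86 for Pck1, -0.71 to -0.67 for Slc37a4, -0.55 to -0.49 for Fbp1, -0.22 to -0.18 for Mdh1, -0.18 to -0.10 for G6pc, -0.08 to -0.03 for G6pc3 and -0.05 to -0.01 for Pcx. Arrays centred on their medians gave 769 higher probes in place of 1942 and put G6pc past the threshold (-0.27, adjusted p = 0.022), and the median of all detected probes was then -0.07 in place of -0.01. A pooled error also put G6pc past it (-0.14, adjusted p = 0.022), and the adjusted p of G6pc ran from 0.0219 to 0.307 over its alternatives. The response of G6pc3 minus Pcx, not past the threshold, changed sign to 0.040 with median centring and ran from -0.050 to 0.0016 with each liver left out. The cause of these shifts was not tested. Between 14 and 16 of 21 response pairs passed with each liver left out, and 0 pairs covaried past the threshold under the 4 alternatives run for covariation or with each liver left out.

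The replicate number was not taken as a pairing in the main fit, although some same-numbered SA_15% and Ctrl livers deviated together. The correlation of their residuals ran from -0.0696 to 0.391, with 10 of 15 over 0.1, and 6 of 15 SA_15% livers were most like the Ctrl liver of their own number, a hint from the data of some shared structure. The permutation tests of response and covariation had no block by replicate number and treated livers as exchangeable. The part of this structure in their p-values was not tested. A fit with the replicate number as a block gave 2129 higher and 2330 lower probes and changed no call of a member. The values are relative signals of single probes in 1 tissue piece per mouse, a dim probe near background understates a difference, and the number of livers limits what a correlation can show.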
